A study of Mus musculus with 2 samples.

Results

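The choroid plexus epithelium was followed through 10 of its known genes, Ttr, Kl, Folr1, Aqp1, Kcne2, Kcnj13, Slc4a5, Clic6, Cldn2 and Otx2. The genes are markers of this epithelium and were chosen by their measured signals on these same arrays, where several of them had been seen to be high in 1 pool, so their levels are given as a description, with no test. A probe was taken for a member where its accession or symbol, current or older, was that of the gene. This found 9 of the 10 members among 21441 genes, on 13 probes. No spot carried a name of Kcnj13, an inward rectifier potassium channel of the epithelium, and its expression was not analysed here. The data came from 4 one-colour arrays of mouse hypothalamus, 1 for each combination of feed (control or 0.5% bezafibrate) and time of day (ZT10 or ZT22, in hours of Zeitgeber time). Each array was hybridised with RNA pooled from 4 mice, so the spread between mice cannot be seen, and no p-value was computed.

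The treated mice were 8 weeks old at the start. Their normal feed, given for 2 weeks, was replaced for 2 weeks by the same feed with bezafibrate and given again for a further 5 weeks, and the labels do not say at which of these stages the hypothalamus was taken. Strain and sex were not given in the sources used here, nor was any allele or other agent. The dissected piece was a square block that contained the hypothalamus. Bezafibrate is a lipid-lowering fibrate that activates peroxisome proliferator-activated receptors (PPARs), and the study asked what a PPAR-alpha agonist does to hypothalamic gene expression.

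The choroid plexus is a folded epithelium over a core of leaky capillaries that hangs into the brain ventricles, including the third ventricle, which runs along the midline of the hypothalamus. Its cells secrete cerebrospinal fluid by moving ions and water from blood to ventricle, and they make and carry proteins and vitamins for the brain. It lies outside the hypothalamus proper and borders on the ependyma, the ciliated lining of the ventricle.

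The promoter windows of a few members are shown because Kcne2 and Aqp1 were high together and Otx2 encodes the regulator that this epithelium is known to need. The sequences are those of RefSeq on build GRCm38.p6, from 250 bases before to 50 bases after an annotated start, 5′ to 3′ on the gene's strand. The table used held 11 windows for 7 of the members, Kcnj13 included, and none for Folr1 or Clic6. Capitals mark the homeodomain core bound by OTX proteins, TAATCC or its reverse complement GGATTA, searched on both strands.
Kcne2, chr16:92292139-92292438, plus strand: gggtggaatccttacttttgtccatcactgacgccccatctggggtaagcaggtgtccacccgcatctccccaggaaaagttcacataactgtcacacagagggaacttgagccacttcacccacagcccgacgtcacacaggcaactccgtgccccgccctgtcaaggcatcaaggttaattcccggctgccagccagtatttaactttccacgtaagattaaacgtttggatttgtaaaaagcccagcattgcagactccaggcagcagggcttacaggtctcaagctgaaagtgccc
Aqp1, chr6:55336049-55336348, plus strand: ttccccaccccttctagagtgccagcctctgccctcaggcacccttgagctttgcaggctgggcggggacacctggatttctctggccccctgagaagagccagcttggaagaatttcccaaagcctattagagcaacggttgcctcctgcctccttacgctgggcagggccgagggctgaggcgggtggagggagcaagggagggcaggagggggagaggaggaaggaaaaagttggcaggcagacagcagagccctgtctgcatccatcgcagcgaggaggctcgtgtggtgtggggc
Otx2, chr14:48665060-48665359, minus strand: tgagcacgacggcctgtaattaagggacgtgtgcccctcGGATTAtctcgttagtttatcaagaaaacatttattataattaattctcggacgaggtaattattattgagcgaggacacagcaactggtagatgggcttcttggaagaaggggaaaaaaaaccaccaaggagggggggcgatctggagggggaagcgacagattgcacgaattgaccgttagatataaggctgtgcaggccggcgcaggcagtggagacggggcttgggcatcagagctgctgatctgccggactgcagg
Of the 11 windows, 1 held the OTX core, in the Otx2 window above at 211 bases before the start, against 7.06% of 32851 windows of that length in the whole table. The PPAR response element AGGTCANAGGTCA was in none of the 11 windows and in 0.040% of all windows. Its single repeat AGGTCA, which the longer motif contains, was likewise in none of the 11 and in 16.3% of all windows. These are matches of letters and say nothing about binding.

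All 4 arrays lay on 1 slide, with the control arrays at positions 1 and 2 and the bezafibrate arrays at positions 3 and 4, so feed and position on the slide cannot be told apart. Between 68.7% and 74.6% of the 43379 features of an array were well above background, and 0 were saturated. Of 10 genes that mark hypothalamic neurons (Avp, Oxt, Hcrt, Pmch, Trh, Gal, Nr5a1, Sim1, Otp and Nkx2-1), 9 were well above background on all 4 arrays. Otp was so on the bezafibrate array at ZT22 alone, at 30.0 intensity units against 2.1 to 3.7 on the others. Signals below are the scanner's processed signal brought to a common 75th percentile, in intensity units, and the error after ± is the scanner software's error for the spot, which covers neither mice nor pools. Ratios are differences of log2 scaled signals.

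Of the 9 measured members, 7 were at least 1.5-fold higher in the bezafibrate pool than in the control pool at ZT22: Ttr, Kcne2, Aqp1, Slc4a5, Folr1, Kl and Cldn2. None was that much lower. The corresponding shares of all 16949 genes tested were 1.99% higher and 3.49% lower, and since the members were chosen with this comparison known, nothing is read from their count. The differences spanned 1.83-fold for Cldn2 to 13.6-fold for Ttr, the highest ratio among 16215 genes above background on both arrays. Otx2 was 1.29-fold higher, and Clic6 was level between the feeds. In a bulk pool, more cells of a type and more RNA per cell cannot be told apart.

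**Figure D1:**
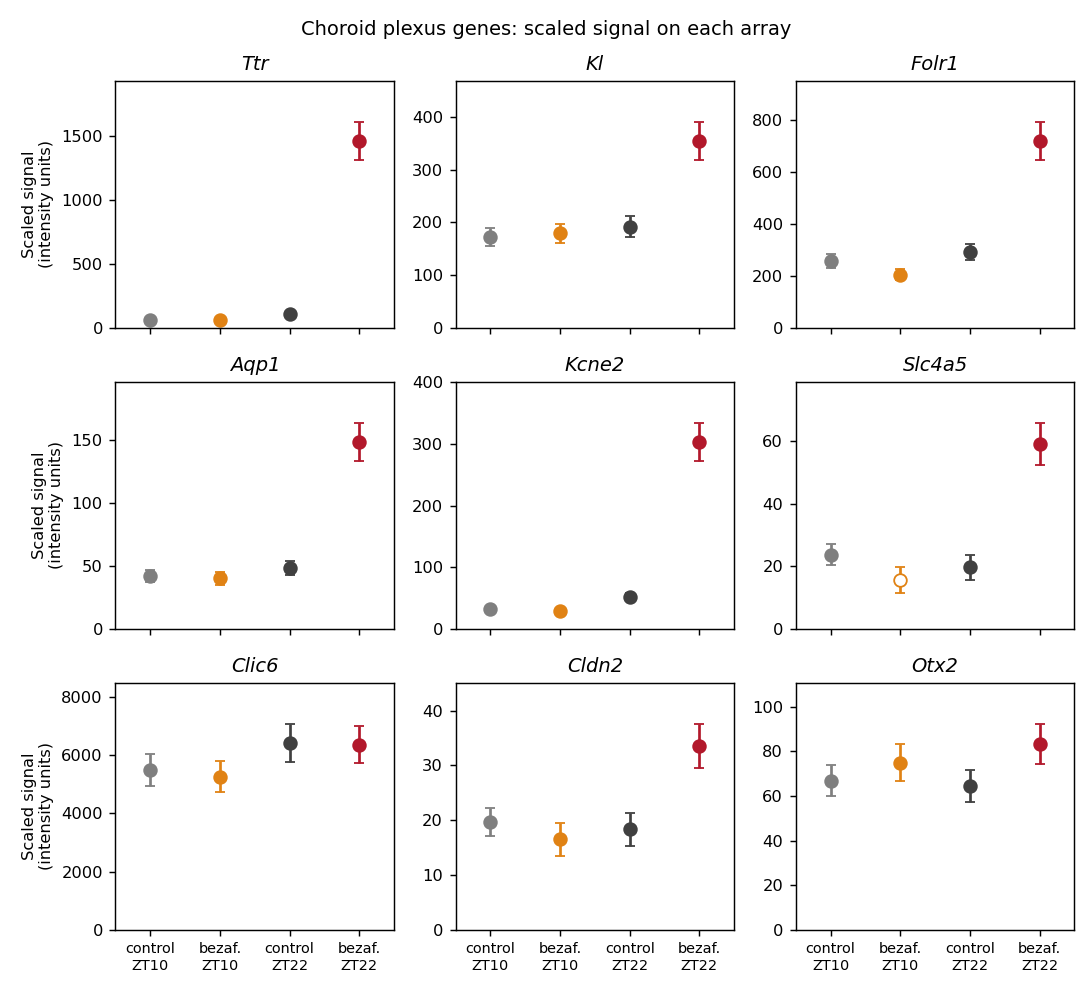
Scaled signal (intensity units, linear axis from 0, its own scale in each panel) of the 9 measured members on the control and bezafibrate (bezaf.) arrays at ZT10 and ZT22. Each point is 1 array, bars are the scanner's error, and the open point of Slc4a5 was not well above background; 7 members stand at least 1.5-fold above the other 3 arrays in the bezafibrate pool at ZT22, and Otx2 and Clic6 do not.

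Transthyretin (Ttr, NM_013697) is the thyroxine and retinol-binding protein carrier that the choroid plexus secretes into cerebrospinal fluid. At ZT10 its scaled signal was 57.6 ± 6.2 in control and 59.1 ± 7.2 in bezafibrate, and at ZT22 it was 107.7 ± 11.4 in control and 1462 ± 146 in bezafibrate. The bezafibrate pool at ZT22 stood alone, and the control pool of that time was next, above both ZT10 pools. The log2 ratio of bezafibrate over control was 0.04 ± 0.23 at ZT10 and 3.76 ± 0.21 at ZT22. The ZT22 ratio of Ttr was the greatest of the 9 members.

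Klotho (Kl, NM_013823) is a co-receptor for fibroblast growth factor 23 that the epithelium also sheds. Scaled signals of Kl were 172.3 ± 17.3 in control and 179.0 ± 18.1 in bezafibrate at ZT10, and 191.9 ± 19.4 in control and 354.4 ± 35.5 in bezafibrate at ZT22. The other 3 arrays lay within their errors of each other, and the bezafibrate array at ZT22 was above them, by 0.88 ± 0.21 in log2 over its control. Another Kl probe (AB010088) was not well above background on any array and gives no ratio.

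Folate receptor alpha (Folr1, NM_008034) carries folate across the epithelium. On its brighter probe the scaled signal was 257.5 ± 25.8 in control and 204.4 ± 20.7 in bezafibrate at ZT10, and 291.8 ± 29.4 in control and 720.9 ± 72.1 in bezafibrate at ZT22. The log2 ratio of the feeds was -0.33 ± 0.21 at ZT10 and 1.30 ± 0.20 at ZT22. The other Folr1 probe did not follow at ZT22. That probe read 64.3 ± 6.8, 38.8 ± 5.5, 83.2 ± 8.9 and 69.8 ± 7.6 on the same arrays in the same order, a log2 ratio of -0.73 ± 0.25 at ZT10 and -0.25 ± 0.22 at ZT22. The probes of Folr1 thus disagree in sign at ZT22, and the 2.47-fold difference rests on the brighter one.

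Aquaporin 1 (Aqp1, NM_007472) is the water channel of the ventricular face of the epithelium. Aqp1 had scaled signals of 42.1 ± 4.6 in control and 40.2 ± 5.1 in bezafibrate at ZT10, and 48.0 ± 5.6 in control and 148.4 ± 15.1 in bezafibrate at ZT22. The feed difference was within the scanner error at ZT10 and 1.63 ± 0.22 in log2, or 3.09-fold, at ZT22.

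Kcne2 (NM_134110) encodes a beta subunit that joins voltage-gated potassium channels in this epithelium. For Kcne2 the scaled signal was 31.5 ± 3.6 in control and 28.4 ± 3.9 in bezafibrate at ZT10, and 51.6 ± 5.7 in control and 303.4 ± 30.5 in bezafibrate at ZT22. It had the order of Ttr among the ZT22 arrays and the next largest ratio of the members, 2.56 ± 0.22 in log2, which was rank 5 among the 16215 genes.

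Slc4a5, a sodium bicarbonate cotransporter of the ventricular face, was carried in the files under an older clone name (AK049248). Its scaled signal was 23.6 ± 3.4 in control at ZT10, 19.6 ± 4.1 in control at ZT22 and 59.0 ± 6.7 in bezafibrate at ZT22. On the bezafibrate array at ZT10 it was not well above background, at 15.6 ± 4.2. By the measured signals the control array at ZT10 was 1.51-fold brighter, a log2 ratio of -0.59 ± 0.44, which is not a lower limit. At ZT22 the log2 ratio was 1.59 ± 0.35, or 3.01-fold. The ZT10 ratio keeps the dim spot at its measured value, which was above the lowest signal called above background on that array. For Slc4a5 the bezafibrate pool was thus the dimmest array at ZT10 and the brightest at ZT22. Another Slc4a5 probe (XM_888058) was not well above background on any array.

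Clic6 (NM_172469), a chloride intracellular channel protein, did not share the pattern. Its scaled signal was 5483 ± 548 in control and 5265 ± 526 in bezafibrate at ZT10, and 6423 ± 642 in control and 6357 ± 636 in bezafibrate at ZT22. All 4 arrays overlapped within about their errors, and the brightest was the control array at ZT22. The feed log2 ratio was -0.06 ± 0.20 at ZT10 and -0.02 ± 0.20 at ZT22, rank 9306 of the 16215 genes. A dimmer Clic6 probe gave -0.15 ± 0.20 and -0.11 ± 0.20, so both probes put Clic6 level.

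Claudin 2 (Cldn2, NM_016675) forms the cation and water permeable tight junctions of leaky epithelia. Cldn2 had scaled signals of 19.7 ± 2.5 in control and 16.5 ± 3.0 in bezafibrate at ZT10, and 18.3 ± 3.0 in control and 33.6 ± 4.0 in bezafibrate at ZT22. The values lie near the low end of what the arrays call above background. The ZT22 ratio was 0.87 ± 0.29 in log2, and the other 3 arrays overlapped within their errors.

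Otx2 (NM_144841) is the homeodomain regulator that choroid plexus cells need to form and to persist, and its probe was spotted 10 times on each array. The mean scaled signal was 66.7 in control and 74.8 in bezafibrate at ZT10, and 64.4 in control and 83.3 in bezafibrate at ZT22. Across the 10 spots the signal ran from 58.0 to 81.3 in control and from 59.6 to 85.0 in bezafibrate at ZT10, and from 56.7 to 75.6 in control and from 73.0 to 95.02 in bezafibrate at ZT22. The spots of all 4 arrays overlapped, those of the ZT22 arrays only at the ends of their ranges. The log2 ratio of the feeds was 0.16 ± 0.22 at ZT10 and 0.37 ± 0.22 at ZT22, with an SD of 0.12 to 0.15 between spots of one array (n = 10, technical copies on 1 array). Of the 9 members, only Clic6 had a ZT22 feed ratio nearer 0 than Otx2.

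At ZT10 the feeds differed little in the members. Of the 9 members, 0 were at least 1.5-fold higher in bezafibrate and 1 was that much lower, where 1.42% of 17285 genes were higher and 2.36% lower. The 1 was Slc4a5, by a measured ratio whose bezafibrate spot was not well above background. That 1 member was no longer counted under 7 of 8 other ways of processing, but not all of these measured it again. The deposited table held no ZT10 value for Slc4a5, and the set of members above background on all 4 arrays leaves it out. With the mean of its probes Slc4a5 stood at 0.062 in log2. The members' median log2 ratio was -0.07 at ZT10 and 1.30 at ZT22, while the median of all genes tested was 0.00 and 0.01. Ratios of 3 members lay above 0 at ZT10 and those of 8 at ZT22, as did 50.4% and 52.1% of all genes tested. The difference between the times was not tested, since each group is 1 pool.

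A stricter count, of members at least 2-fold different, gave 0 in either direction at ZT10, where 0.688% of genes were higher and 0.822% lower. At ZT22 it gave 5 members higher (Ttr, Kcne2, Aqp1, Slc4a5 and Folr1) and 0 lower, where 0.714% of genes were higher and 1.73% lower. Kl and Cldn2 lay between the 1.5-fold and 2-fold marks.

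**Figure D2:**
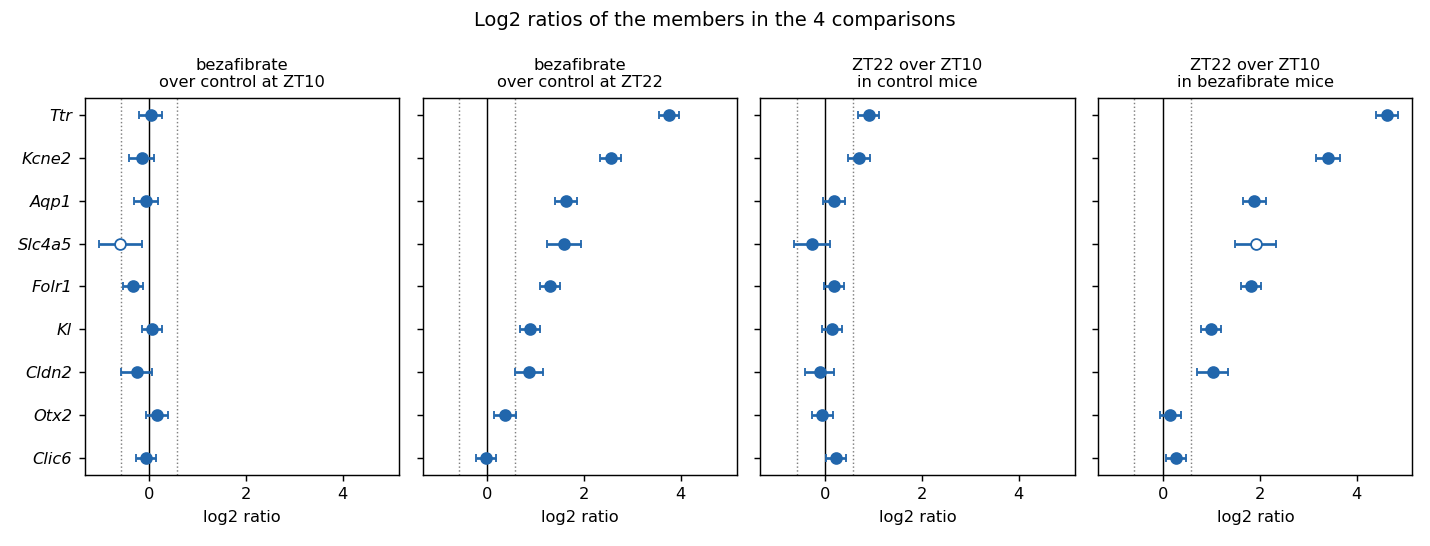
Log2 ratios (x axis) of the 9 measured members (y axis, by ZT22 feed ratio) in the feed and time comparisons, with the scanner error as bars. Dotted lines mark 1.5-fold, and open points are measured ratios of Slc4a5 with 1 array not well above background. The points of 7 members leave the dotted lines in the 2 panels that hold the bezafibrate array at ZT22, and Otx2 and Clic6 stay inside.

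The time comparisons use the same 4 arrays as the feed comparisons, so their values are given beside those above and are not separate evidence. In control mice, 2 members were at least 1.5-fold higher at ZT22 than at ZT10, and 0 were lower, where 3.43% of 17395 genes were higher and 2.99% lower. These were Ttr, at 0.90 ± 0.22 in log2, and Kcne2, at 0.71 ± 0.23, and 0 members were counted under normexp background correction. The other 7 members lay between -0.27 ± 0.37 (Slc4a5) and 0.23 ± 0.20 (Clic6), with a median over the 9 of 0.18 against 0.03 for all genes. At 2-fold, 0 members differed, where 1.74% of genes were higher and 1.1% lower. In bezafibrate mice, 7 members were at least 1.5-fold higher at ZT22 and 0 lower, where 3.01% of 16754 genes were higher and 2.42% lower. Ttr was 24.8-fold higher, Kcne2 10.7-fold, Aqp1 3.69-fold, Folr1 3.53-fold and Cldn2 2.04-fold. Slc4a5 was 3.78-fold higher by its measured signals (1.92 ± 0.42 in log2), with its ZT10 spot not well above background. Kl was 1.98-fold higher, and Otx2 and Clic6 were at 0.16 ± 0.22 and 0.27 ± 0.20 in log2. At 2-fold, 6 members were higher and 0 lower, where 0.848% of genes were higher and 0.848% lower.

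Set against each of the other 3 arrays, the bezafibrate array at ZT22 was the brightest for 8 of the 9 members, as it was for 32.4% of 17543 genes. It was at least 1.5-fold above each of the others for 7 members, as it was for 1.01% of genes. Clic6 was brightest on the control array at ZT22. The order of the remaining 3 arrays was not shared: control at ZT22 came next for Ttr, Kcne2, Kl, Folr1 and Aqp1, and control at ZT10 came next for Slc4a5 and Cldn2.

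The 7 members were then compared by how far each array lay between that member's dimmest array (0%) and its brightest (100%), a measure that a constant level of signal does not alter. The control array at ZT22 lay at 3.57 ± 0.99% for Ttr, 8.42 ± 2.63% for Kcne2, 7.18 ± 6.86% for Aqp1 and 16.9 ± 7.0% for Folr1. It lay at 10.8 ± 13.8% for Kl, 9.10 ± 13.1% for Slc4a5 and 10.7 ± 23.7% for Cldn2. Each of the other arrays of these members lay at 18.7% or lower. The errors for Kl, Slc4a5 and Cldn2 exceeded the positions themselves. Since the members were chosen for their signal on the bezafibrate array at ZT22, which is the 100% point of all 7, these positions are given as a description. Otx2 and Clic6 were not placed, since the errors of their positions were wide, at 50.2% and 53.5% for Otx2 and 60.9% and 75.8% for Clic6. For Otx2 that error is the average for a single spot and was not reduced for its 10 spots.

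**Figure D3:**
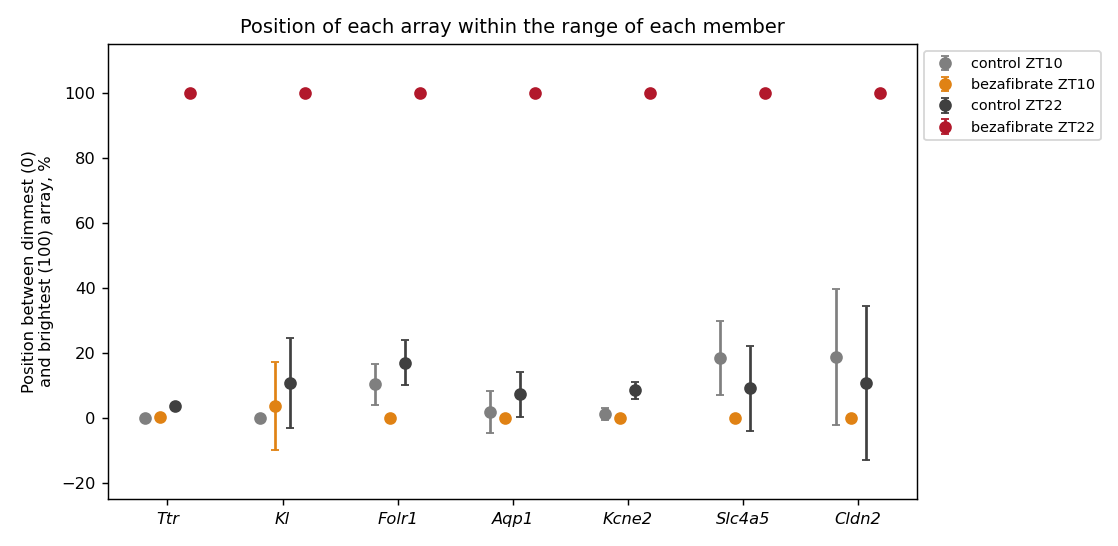
Position of each array (percent, y axis) between the dimmest and the brightest array of each of the 7 members (x axis), with the error from the scanner. The 3 other arrays lie at or below 18.7% for every member, and the bars are longest for Cldn2, Kl and Slc4a5.

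A wider list of 30 genes used as choroid plexus markers in the brain had 29 on the arrays (Mfrp was not found), and 2 of these, Tmem72 and Lmx1a, were not well above background on any. At ZT22, 5 of the 27 tested were at least 1.5-fold higher in bezafibrate and 0 lower, 19 lay above 0, and the median was 0.17. Of all 16949 genes tested, 1.99% were higher, 3.49% lower and 52.1% above 0. Ecrg4, a secreted peptide precursor of the epithelium, stood out. Ecrg4 read 149.8, 105.5, 160.6 and 412.0 in control and bezafibrate at ZT10 and control and bezafibrate at ZT22, and its feed log2 ratio was -0.51 ± 0.21 at ZT10 and 1.36 ± 0.21 at ZT22. The carbonic anhydrase Car12 was at 0.79 ± 0.21, the secreted BMP and Wnt antagonist Sostdc1 at 0.65 ± 0.20 and the insulin-like growth factor carrier Igfbp2 at 0.60 ± 0.20. Coagulation factor F5 was above background only on the bezafibrate array at ZT22, which was at least 1.68-fold brighter than its control. Other known genes of the epithelium had ratios nearer 0. The lysophospholipase Enpp2 was at 0.38 ± 0.20, the sulfate transporter Slc13a4 at 0.17 ± 0.20 and the prolactin receptor Prlr at -0.10 ± 0.20, all in log2 at ZT22. At ZT10, 0 of the 26 tested were higher and 1 lower, the protease inhibitor Wfikkn2 at -0.59 ± 0.25, and the median was -0.10. Of all genes tested at ZT10, 1.42% were higher and 2.36% lower. In bezafibrate mice 10 of the 27 tested were at least 1.5-fold higher at ZT22 than at ZT10, where 3.01% of all genes were. The list's summed scaled signal was 29807 and 26913 in control and bezafibrate at ZT10, and 32487 and 38704 at ZT22.

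Binding partners and neighbours in function of the members, among them Rbp4, Kcnq1, Slc12a2 and Tjp1, had 16 of 17 genes tested at ZT22. None of these 16 was 1.5-fold different, at a median of -0.057. Relatives in the members' gene families had 2 of 32 higher and 2 lower at ZT22, and 1 higher and 5 lower at ZT10. The shares of all genes were 1.99% higher and 3.49% lower at ZT22, and 1.42% higher and 2.36% lower at ZT10. Cldn3, a claudin of tight epithelia, was 287.9, 81.0, 77.6 and 93.5 on the 4 arrays in the order above, and Kcne4, a relative of Kcne2, was 94.1, 42.9, 41.7 and 35.7. Both were highest in the control pool at ZT10, not in the bezafibrate pool at ZT22. Crx, the photoreceptor relative of Otx2, was above background on the bezafibrate array at ZT10 and the control array at ZT22 only, at 94.2 and 24.8.

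Lists for other cells that the dissected block could hold were read in the same way. Beside the ZT22 counts below, 1.99% of all genes tested were 1.5-fold higher, 3.49% lower and 52.1% above 0. Of 15 ependymal genes 0 were 1.5-fold different at ZT22 (median -0.11), and the same held for 12 endothelial genes (median -0.04) and 14 meningeal and stromal fibroblast genes tested (median -0.03). In bezafibrate mice over time, however, 7 of those 14 fibroblast genes were higher at ZT22 (median 0.62), where 3.01% of all genes were. In control mice 2 of 15 were higher at ZT22 (median 0.29), where 3.43% of all genes were, and 13 lay above 0. Between the feeds at ZT10, 14 of the 15 lay below 0 (median -0.19). Of these, 2 were 1.5-fold lower, where 2.36% of all genes were. Markers of tanycytes, the hypothalamic glia that line the floor of the ventricle, had 3 of 9 higher at ZT22. These were the thyroid hormone binding protein Crym at 0.97 ± 0.20, the homeodomain regulator Rax at 0.87 ± 0.22 and the deiodinase Dio2 at 0.65 ± 0.20. All 3 were lowest in the control pool at ZT22. Rax read 95.7, 79.7, 57.0 and 103.9 in control and bezafibrate at ZT10 and then at ZT22. Over time, 0 of the 9 were 1.5-fold higher in bezafibrate mice and 1, Rax, was lower in control mice. The shares of all genes were 3.01% and 2.99%. The summed signal of the tanycyte list, 6627 and 7129 in control and bezafibrate at ZT10, was 6182 and 9726 at ZT22, and the tanycyte marker Scn7a was dim on all arrays. Striatal genes had 4 of 16 higher at ZT22 and 14 above 0 (median 0.34). Among them were the dopamine signalling protein Ppp1r1b at 0.96 ± 0.20 and the dopamine receptor Drd1 at 0.89 ± 0.20. Both were lowest in the control pool at ZT22, at 262.4 for Ppp1r1b and 264.4 for Drd1. Over time, 1 of the 16 was 1.5-fold higher in bezafibrate mice and 1, Ppp1r1b, was lower in control mice. The striatal sum was 95221, 94123, 89161 and 115236 in the same order. Myelin genes had 0 of 15 past 1.5-fold, but all 15 lay below 0 at ZT22 (median -0.35), with sums of 252072, 251195, 264465 and 229037. The visual and pineal list had 6 genes tested, 1 higher and 1 lower, and Rpe65, Rgr and Tyr were dim on all arrays. The gene that was higher, the retinol esterifying enzyme Lrat, read 60.2, 33.4, 53.3 and 152.8 in the same order, a feed log2 ratio of -0.85 ± 0.27 at ZT10 and 1.52 ± 0.23 at ZT22. Blood genes had 4 tested, 0 past 1.5-fold, at a median of -0.31. Thalamus genes had 0 of 14 past 1.5-fold at ZT22 (median -0.17). Cortex and hippocampus had 1 of 12 higher (median 0.08), and pituitary 1 higher and 2 lower of 8 (median -0.04). At ZT10, 0 genes of these lists were 1.5-fold higher in bezafibrate. Those 1.5-fold lower were 4 of 14 for thalamus (median -0.26), 2 of 12 for cortex and hippocampus (median -0.05) and 5 of 9 for pituitary (median -0.80). Of all genes tested at ZT10, 1.42% were higher and 2.36% lower. All 9 pituitary genes lay below 0, with Prl at -4.48 ± 0.33 and Gh at -3.72 ± 0.33 in log2. The cortex and hippocampus sum was 42106, 42413, 45252 and 55714 in the order above, that of thalamus 53213, 49779, 50946 and 48395, and that of blood 17846, 17844, 19393 and 15758. Of the 14 lists besides the members, the pool with the high choroid plexus signals thus had the highest sum in 7 (wider choroid plexus, partners, family relatives, tanycyte, striatum, cortex and hippocampus, visual and pineal) and the lowest in 3 (myelin, thalamus and blood). Their part in the result was not tested.

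**Figure D4:**
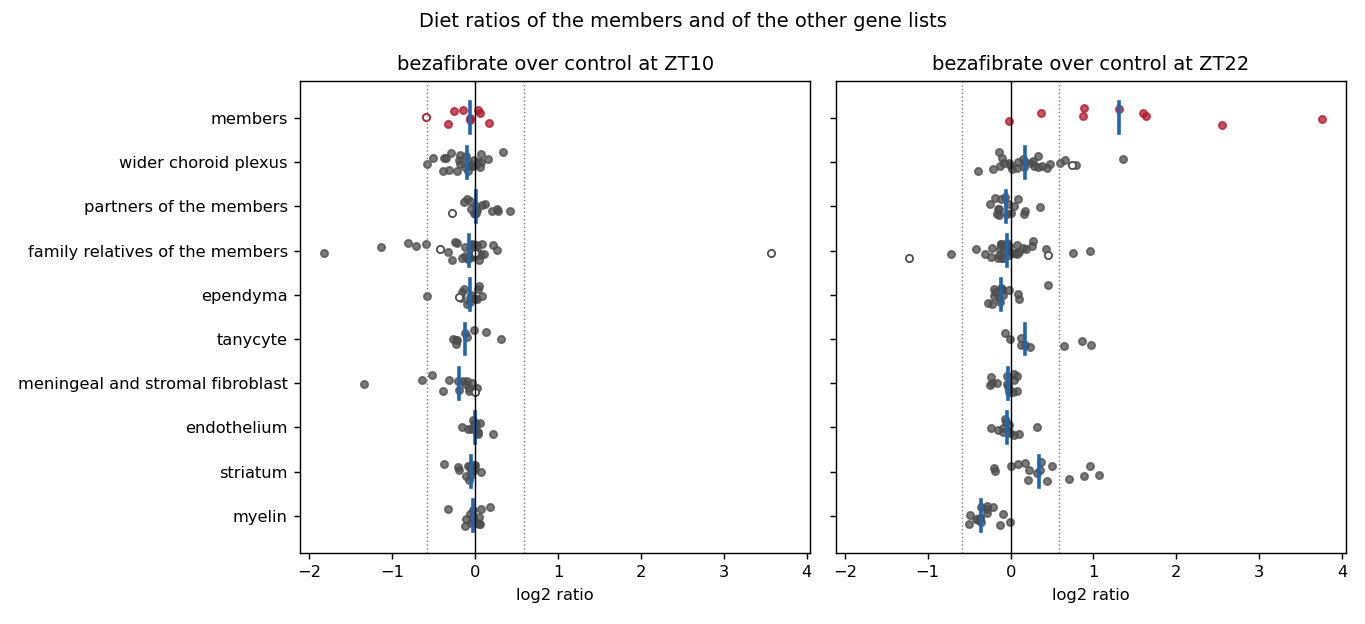
Log2 ratio of bezafibrate over control (x axis) at ZT10 and ZT22 for each gene of the members and of the other lists (y axis). Blue bars are list medians and dotted lines mark 1.5-fold. Open points are genes well above background on only 1 of the arrays compared. At ZT22 the members' median is 1.30, the wider choroid plexus list's 0.17, the striatum list's 0.34 and the myelin list's -0.35.

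Genes outside the list with the most similar course were found by Pearson's r across the 4 arrays with the median of the members' centred log2 values, among 419 genes above background on all 4 arrays with a log2 range of at least 1. With 4 points that share 1 high array, r is a description only: 25 of the 419 genes (5.97%) had r above 0.95. The 6 members among the 419 had r of 0.985 to 0.997. That is built in, since the profile is the median of the members' own values. The 6 reached the log2 range only through the bezafibrate array at ZT22. Clic6, Otx2 and Slc4a5 did not pass the filter, so nothing is read from the members' r. Named outside the members were Dnaaf6b, Cyp2d26, Tshb, Trim30a, Ecrg4, Tmprss2, Olfr522, Hjv, Cyp2c70 and Adgrg3, with r of 0.997 down to 0.983. The protease Tmprss2 read 19.3, 20.6, 27.7 and 271.3 in the array order above. The thyrotropin subunit Tshb read 221.3, 179.0, 213.5 and 544.9, but another Tshb probe had a feed log2 ratio of -0.09 at ZT22 against 1.35 on this one. Trim30a likewise had a second probe at -0.08 against 1.02. Ecrg4 was the 1 gene of the 10 that the wider choroid plexus list held.

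In the authors' deposited table of bezafibrate over control ratios at ZT22, Ttr stood at 12.9, Kcne2 at 5.59, Aqp1 at 2.94, Slc4a5 at 2.87 and Folr1 at 2.35. The authors' deposited table gave Kl 1.76, Cldn2 1.75, Otx2 1.23 and Clic6 0.94, which keeps the order found here. The table's column medians were 0.947 at ZT10 and 0.958 at ZT22.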

How the data were processed

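RNA of 4 mice per group was pooled and 400 ng labelled with Cy3 for Agilent whole mouse genome arrays, per the labels. Per the file headers, the authors used Feature Extraction 9.5.1.1 to read spots. As deposited, the signal of a spot is a background-subtracted intensity that no step had normalized between arrays. The deposited value table holds a linear ratio of bezafibrate over control. Its direction and scale were checked against the arrays (r of 0.988 and 0.990 across spots).

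Here, control and outlier spots were left out, log2 signals were brought to each array's 75th percentile, spots of a probe averaged, and a gene taken by its brightest probe (41174 probes; 22951 named by accession, 5850 by symbol, 3944 by older symbol, 2225 keeping the file's name). Scaled signals use a common percentile of 988.9 intensity units. With 1 array per group and members chosen from these values, no test was run; a 1.5-fold difference was counted, bounds included, and precision is limited by the 4 arrays. The comparison step was checked on simulated data. Alternatives were normexp (offset 50, limma 3.58.1 in R 4.3.3), quantile, median and no scaling, the percentile of detected probes, the mean of probes, members detected everywhere, and the deposited table. The files held the median spot intensity rather than the mean, so normexp used the median.

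The members and lists were chosen with earlier results of these data known. Named genes were drawn from all members, up to 8 genes of the wider list at least 1.5-fold different between feeds, up to 3 of each other list, and the 10 most alike non-members. Enpp2, Slc13a4, Prlr and Otp were named besides, after their values were seen. Sequences are from RefSeq (GRCm38.p6). Expression of Kcnj13 and sequences of Ttr were not used here.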

Additional observations from a re-analysis of the deposited data

Results flagged for a closer look

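Folr1 and Slc4a5 were lower in the bezafibrate pool than in the control pool at ZT10 and higher at ZT22. The feed log2 ratio of Folr1 was -0.33 at ZT10 and 1.30 at ZT22, a difference of 1.64 between the times. That of Slc4a5 was -0.59, with its bezafibrate spot not well above background, and 1.59, a difference of 2.19. Each ratio rests on 1 pool per group, and the differences were not tested. For Folr1, the other probe had ratios of -0.73 and -0.25, below 0 at both times.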

How the results depend on the processing

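The count of members at least 1.5-fold different at ZT22 was 6 or 7 under every alternative run, all of them higher in bezafibrate. Under normexp, which adds an offset and draws low signals together, the members' median was 0.80 for the feeds at ZT22 and 0.88 between the times in bezafibrate mice, and the count in control mice over time was 0 where it was 2. With the mean of all probes those medians were 0.87 and 1.101, Slc4a5 at ZT10 turned to 0.062, and the highest position of another array was 49.4% in place of 18.7%, since dim probes of Kl and Slc4a5 and the other Folr1 probe then enter. The time median in bezafibrate mice was 1.585 without scaling, which moves the median of all genes by -0.23, and 1.42 with members above background on all 4 arrays. The count of 1 member at ZT10 was 0 under normexp, quantile, median or no scaling and the mean of probes. It was also 0 with members above background everywhere and in the deposited table, but Slc4a5 is absent from both at ZT10. Crx at ZT22 turned to 0.14 under normexp. Over settings the ZT22 feed log2 ratio ran from 2.93 to 3.78 for Ttr, 1.83 to 2.57 for Kcne2, 1.07 to 1.64 for Aqp1, 0.61 to 1.66 for Slc4a5, 0.53 to 1.32 for Folr1, 0.71 to 1.15 for Kl, 0.37 to 0.96 for Cldn2, 0.19 to 0.40 for Otx2 and -0.19 to 0.00 for Clic6. Of 881 values of single genes, 30 had another sign than under the main setting, and 2 of these (Slc4a5 and Crx, above) had been past 1.5-fold. Besides these 2, 772 moved by less than the scanner error and 107 by more. Leaving out an array and blocking on the slide were not run, with 1 array per group and 1 slide. No paired analysis was possible because the groups share 1 replicate number only and no result comes from a test. A fit of feed with time as a block, which would leave 1 degree of freedom, was not run. Signal over background limits Slc4a5, which was not well above background on 1 array.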
